A study of Mus musculus with 10 samples.

Results

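RNA sequencing was analysed for 10 genes of the pentose phosphate pathway and of phosphoribosyl pyrophosphate (PRPP) synthesis in mouse embryonic stem cell (ESC) lines. The genes are Pgls, Pgd, H6pd, Rpe, Rpia, Tkt, Taldo1, Prpsap1, Prpsap2 and Rbks, all on autosomes. Members were chosen by symbol and by function, not by their values, but with earlier results of these data known. They came from a table of 20206 genes, and each symbol had 1 row. The X-linked genes G6pdx, Prps1 and Prps2 of the same route are given beside them.

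The lines were derived from C57BL/6 blastocysts, wild type and labelled male. Their mothers were 7 to 9 weeks old at mating and were fed either a low protein diet (LPD, 9% casein) or a control normal protein diet (NPD, 18% casein) up to embryonic day 3.5. Both diets were isocaloric. All lines were established on mouse fibroblast feeders and were grown without them for RNA extraction. LPD lines 1, 4, 6, 20 and 40 and NPD lines 8, 15, 21, 36 and 51 give 5 lines per diet. Each line comes from 1 embryo, the study states that the lines it analysed were from separate mothers, and 1 library was made per line, so a difference between diets is read against the spread between lines. The diet acted on the mothers before derivation, and no line was exposed to it in culture.

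The pentose phosphate pathway branches from glycolysis at glucose 6-phosphate. Its oxidative arm reduces NADP+ to NADPH and yields ribulose 5-phosphate, and its non-oxidative arm interconverts sugar phosphates and returns carbon to glycolysis. Ribose 5-phosphate is turned into PRPP, the sugar donor for purine, pyrimidine and NAD synthesis, for which rapidly dividing cells such as ESCs have a large demand.

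Values are normalised read counts per gene as the authors deposited them, estimated from transcripts and not whole reads. NPD lines held between 20317850 and 23187681 read equivalents, a line's total divided by what 1 read was worth in it. LPD lines 1, 4, 6, 20 and 40 held 21836425, 5848981, 12331588, 24242342 and 11249080. Even so, the member with the lowest values, Rbks, was measured by at least 25.3 read equivalents in every line, and Tkt by at least 3527. Depth therefore limited Rbks most.

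The labels were checked before any comparison. The pluripotency marker with the highest values, Dppa5a, had values from 22436 to 35842, and the summed value of 8 pluripotency markers lay between 80367 and 107390 in every line. The Y-linked gene Ddx3y was at 174 in LPD line 4 and at 7.70 in NPD line 15, and at 1110 to 1493 in the other lines. X-linked genes, 334 of them, were also shifted in NPD line 15, with a median 0.49 above that of the 10 lines on the log2 scale. Both lines therefore stand apart from their male label, and NPD line 15 bears on the X-linked G6pdx, Prps1 and Prps2, which are given with and without it. The 10 members are autosomal. After scaling, the autosomal median lay at -0.02 in NPD line 15 and between -0.02 and 0.02 in every line. Such a median does not show whether single autosomal genes were affected in NPD line 15.

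Markers of other cells also varied between lines. The summed value of 8 fibroblast markers was 5536 in NPD line 15, 3460 in LPD line 6, 2104 in NPD line 8 and 1128 in NPD line 36, and between 445 and 787 in the other lines. Col1a1, the one with the highest mean, reached 2709 in NPD line 15 and 1704 in LPD line 6, whereas Postn, Lum and Dcn were each at 0 in at least 1 line and at most 112 in any. The 6 primitive endoderm markers summed to between 382 in NPD line 15 and 4610 in NPD line 36, with Dab2, the highest of them by mean, at 103 and 2165 in these lines. The 6 trophoblast markers summed to between 1859 in LPD line 20 and 4341 in NPD line 8, most of it Tfap2c, at 1440 and 3579. Tfap2c was at 1440 or above in every line, so this sum mostly follows 1 gene and does not measure trophoblast cells. All 6 endoderm markers had a log2 fold change above 0, with a median of 0.38, and of the 6 fibroblast markers tested 2 were above 0 and 4 below, with a median of -0.97. Of 5 trophoblast markers 2 were above 0 and 3 below, and of 8 pluripotency markers 3 above and 5 below. None of the marker genes tested differed between the diets at an unadjusted p under 0.05, and their part in the values of the members was not tested. In such bulk samples, fewer cells of a type and less RNA per cell cannot be told apart.

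Pgls, Rpe and Prpsap1 were also assayed by qRT-PCR in the study, and the primers are shown because they decide which transcripts such a measurement covers, whereas each value here is 1 per gene. The labels of the primer pairs name the transcripts Pgls-202, Rpe-202 and Prpsap1-207. Positions are on GRCm38, read from GENCODE M21 transcripts, and each sequence is written 5′ to 3′.
Pgls forward: gagcacgtacggcctctac
Pgls reverse: ccacaggtagggcaggattg
Rpe forward: gtccatcctcaacagcgacc
Rpe reverse: aaactgacctccctgaagag
Prpsap1 forward: tctgtctgagcttgcgtttct
Prpsap1 reverse: acacacaggtccctctcaga

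The Pgls forward primer lies at chr8:71592483-71592501 and the reverse primer at chr8:71594134-71594153, both in exon 1 of Pgls-202, a transcript with a retained intron. Both fall within coding exons of other Pgls transcripts, and both match all 5 annotated transcripts of the gene. Their product would be 1671 bases on Pgls-202 and, on the 3 protein-coding transcripts, 92 bases on Pgls-201 and Pgls-204 and 376 bases on Pgls-205. So the pair is not specific by sequence to the transcript with the retained intron.

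The Rpe forward primer lies at chr1:66700933-66700952 in exon 1 of Rpe-202 and matches all 5 transcripts of Rpe. The reverse primer, at chr1:66701625-66701644 in exon 2, matches 3 of the 5, Rpe-202, Rpe-203 and Rpe-204. Both are in coding sequence. The pair would give 113 bases on Rpe-202, which codes for protein, and 124 and 513 bases on the other pair of transcripts, which are annotated for nonsense-mediated decay.

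For Prpsap1 the forward primer lies at chr11:116473160-116473180 and the reverse primer at chr11:116473100-116473119, on the minus strand. Both are in exon 1 of Prpsap1-207, a processed transcript without a coding sequence, and match no other of the 9 transcripts of the gene. No base of either primer overlaps an exon of a protein-coding Prpsap1 transcript. The product would be 81 bases. By sequence this pair covers Prpsap1-207 alone, whereas the value given here is 1 per gene.

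The first question was how strongly each member is expressed, which compares between genes only per kilobase of exon. Taldo1, the transaldolase of the non-oxidative arm, had the highest level at 2422 ± 210 normalised counts per kilobase (SD, n = 10), followed by the transketolase Tkt at 1456 ± 197. The 6-phosphogluconate dehydrogenase Pgd followed at 734 ± 121, the epimerase Rpe at 537 ± 108 and Prpsap1 at 483 ± 46.8. Taldo1 was above Tkt and Tkt above Pgd in 10 of 10 lines.

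Prpsap2 came next at 389 ± 51.7, then the lactonase Pgls at 236 ± 39.8 and H6pd at 108 ± 24.7. The ribokinase Rbks at 49.8 ± 10.2 and the ribose 5-phosphate isomerase Rpia at 46.0 ± 5.70 were lowest. Rpe was above Prpsap1 in 7 of 10 lines and Rbks above Rpia in 7 of 10, so the order of these neighbours was not the same in every line. Rpe and Prpsap1 had diet differences of opposite sign, given below, and this count pools both diets. Every other member was above the next in at least 9 lines.

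**Figure D1:**
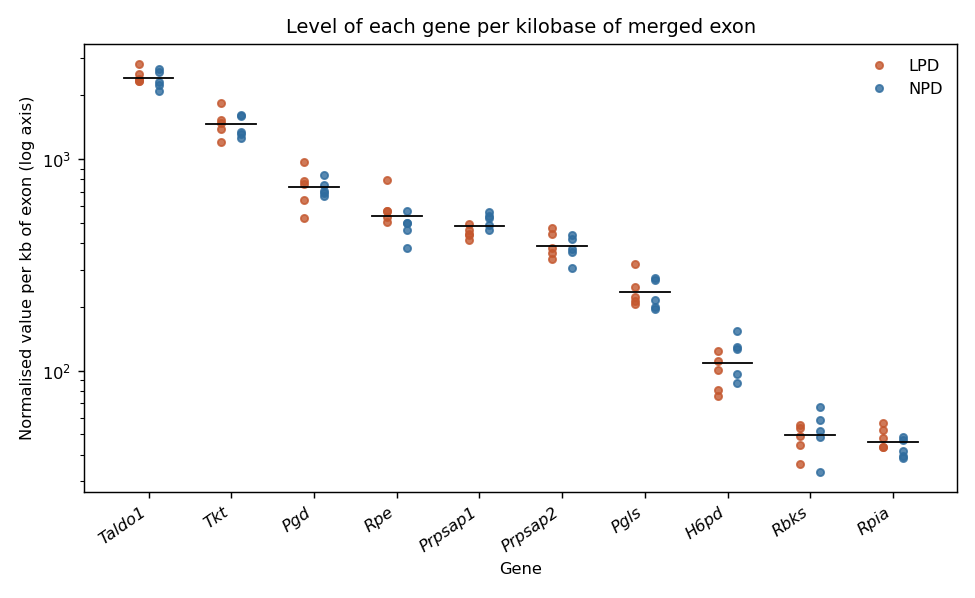
Normalised value per kilobase of merged exon on a log axis for each of the 10 genes, ordered by mean. Points are the 5 LPD and 5 NPD lines and each bar is the mean of 10 lines. Levels run from 2422 for Taldo1 to 46.0 for Rpia, and the lines of both diets overlap in every gene.

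Merged exons include retained introns and long untranslated ends, so the order was also taken per kilobase of the longest protein-coding transcript, a scale chosen after seeing the data. Taldo1, Tkt and Pgd stayed the 3 highest, at 3861, 3323 and 2133 normalised counts per kilobase of transcript. Pgls moved from the seventh place to the fifth at 839, between Prpsap1 at 893 and Rpe at 616. Rpia moved above H6pd and Rbks, at 135 against 120 and 71.2. Only 3 of 10 ranks were shared by both scales, so ranks below Pgd depend on the transcript taken as the length.

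The second question was whether the diets differed. Among 14354 genes whose mean reached 10, all 10 members included, 5.02% were at an unadjusted p under 0.05 in limma on log2(value + 1), with 2.84% higher and 2.18% lower in LPD. The higher share was 56.6% of those calls, against 40.2% with each line rescaled to the same total and 46.2% without the filter on low values. Without LPD line 6 it was 47.8%. Of the members, 1 was higher in LPD at this threshold, Rpe, and 1 was lower, Prpsap1, also after that rescaling and without the filter. Without the mean-variance trend in limma neither was under 0.05, and array weights left Prpsap1 alone. Rpe alone was left with depth as a covariate, or without NPD line 15 and LPD line 4 together. Neither Rpe nor Prpsap1 was under 0.05 without LPD line 6, LPD line 40, NPD line 8, NPD line 36 or NPD line 51. No gene in the table, and so no member, was under 0.1 after Benjamini-Hochberg adjustment (0%), with 721 genes at an unadjusted p under 0.05. Under the adjusted threshold there were 40 genes without LPD line 40, and 1 without LPD line 1, LPD line 20 or NPD line 8, and no member was among them. With all lines, adjusted p of the members lay between 0.964 and 0.997.

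The LPD mean was above the NPD mean on the log2 scale in 6 of 10 members and below it in 4, against 50.5% above among all genes tested. Their median log2 fold change was 0.06, against 0.00 over all genes. It turned to -0.03 without LPD line 40 and was 0.00 without NPD line 8 or with array weights. The groups overlapped in all 10, where they did not overlap in 1.02% of all genes tested. For the members apart from Rpe and Prpsap1, the intervals include no difference and reach a fold of 1.37 upward for Rpia and 0.638 downward for H6pd. A p above the threshold does not show that these genes were alike in both diets.

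**Figure D2:**
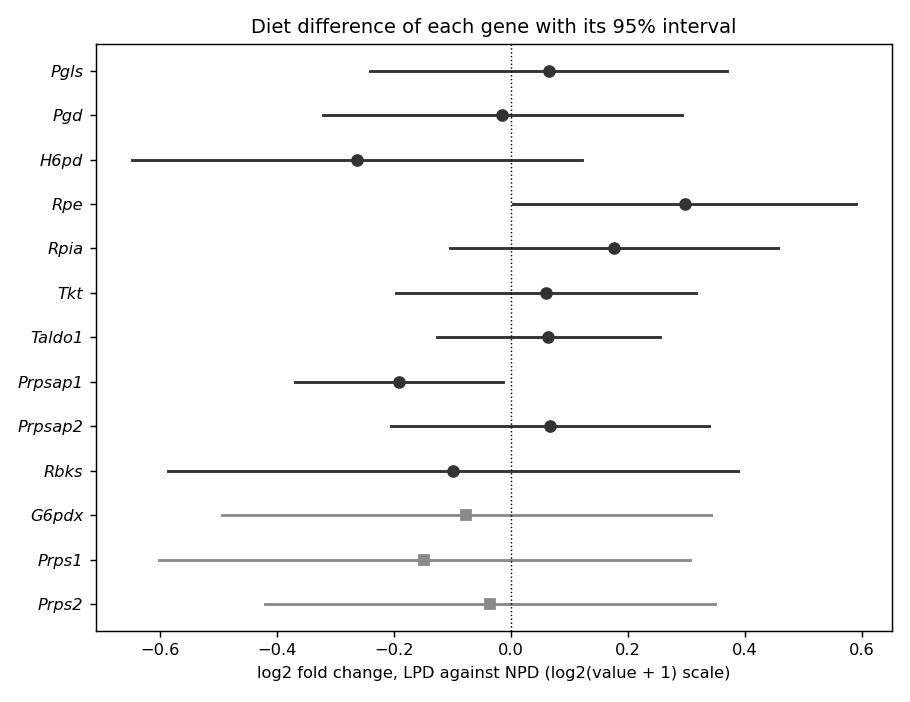
log2 fold change of LPD against NPD on the log2(value + 1) scale with its 95% interval from limma, for the 10 members (dark circles) and for the X-linked G6pdx, Prps1 and Prps2 (grey squares). The intervals of Rpe, from 0.00361 to 0.59, and of Prpsap1, from -0.37 to -0.01, narrowly exclude 0, and all others include it.

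The oxidative arm begins with glucose-6-phosphate dehydrogenase, the enzyme that sets the flow into the pathway, encoded by G6pdx (chrX:74409483-74429194). G6pdx values were 754, 1031, 916, 1432 and 797 in LPD lines 1, 4, 6, 20 and 40 and 1085, 1411, 721, 996 and 963 in NPD lines 8, 15, 21, 36 and 51. LPD line 20 and NPD line 15 were high and the diets overlapped throughout. Its log2 fold change was -0.08 (standard error 0.19, adjusted p = 0.997 in limma, exact permutation test, p = 0.754). It turned to 0.04 when NPD line 15 was left out and to 0.01 when LPD line 1 was. Of its 31-base words, 12.6% are shared with the retrogene G6pd2, which has no row in the table.

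Pgls, the lactonase that opens the ring of 6-phosphogluconolactone (chr8:71592176-71601092), had values of 805, 779, 940, 835 and 1197 in LPD lines 1, 4, 6, 20 and 40. In NPD lines 8, 15, 21, 36 and 51 they were 739, 755, 1009, 809 and 1038. LPD line 40 was the highest of all lines, and NPD lines 51 and 21 were above every other LPD line. Means were 911 ± 171 in LPD and 870 ± 143 in NPD (SD, n = 5 each), a log2 fold change of 0.06 (standard error 0.14, adjusted p = 0.994 in limma, exact permutation test, p = 0.69). Its sign turned without LPD line 40, to -0.04. The direction with all lines differs from the paper, which reports Pgls as reduced in LPD. In RNA sequencing the paper tested single transcripts, whereas the value here is 1 per gene. The paper also assayed Pgls by qRT-PCR, with primers that match all 5 annotated transcripts. What lies behind the difference in direction was not tested. Read assignment is less certain for Pgls, because 19.5% of its 31-base words also occur in transcripts of Fam129c, which had values of 13.8 to 78.0.

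Pgd, which makes ribulose 5-phosphate and NADPH (chr4:149149991-149166771), had values of 3374, 4117, 4930, 6231 and 5095 in LPD lines 1, 4, 6, 20 and 40. The NPD lines 8, 15, 21, 36 and 51 had 4837, 4454, 4308, 4528 and 5440. The LPD lines thus held both the lowest and the highest value, and all NPD lines lay between them. Means were 4749 ± 1077 in LPD and 4713 ± 450 in NPD (SD, n = 5 each), with a log2 fold change of -0.01 (standard error 0.14, adjusted p = 0.997 in limma, exact permutation test, p = 0.937). LPD was thus slightly higher in the mean of untransformed values and slightly lower on the log2 scale. The log2 fold change turned to 0.10 without LPD line 1, 0.03 without LPD line 4 and 0.04 without NPD line 51. It also turned with depth as a covariate (0.03) and without NPD line 15 and LPD line 4 together (0.01). Without LPD line 20 it was -0.12. Whether the spread itself differs between the diets was not tested.

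H6pd, the glucose-6-phosphate dehydrogenase of the endoplasmic reticulum, which supplies NADPH there (chr4:149979475-150009023), had values of 583, 646, 397, 526 and 423 in LPD lines 1, 4, 6, 20 and 40. NPD lines 8, 15, 21, 36 and 51 had 673, 803, 456, 664 and 505. NPD lines 8, 15 and 36 were above all LPD lines, and LPD lines 6 and 40 were below all NPD lines. The log2 fold change was -0.26 (95% interval -0.65 to 0.12, adjusted p = 0.994 in limma, exact permutation test, p = 0.222). The difference did not exceed the spread between lines, and it was -0.16 without NPD line 15 and -0.14 with array weights.

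In the non-oxidative arm, Rpe, the epimerase that forms xylulose 5-phosphate (chr1:66700831-66719805), had values of 1649, 1570, 1767, 2471 and 1775 in LPD lines 1, 4, 6, 20 and 40. NPD lines 8, 15, 21, 36 and 51 had 1430, 1762, 1557, 1175 and 1554. LPD lines 6, 20 and 40 lay above every NPD line, and only NPD line 15 reached LPD lines 1 and 4. LPD line 20 was far above all others, and NPD line 36 was the lowest.

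Means of Rpe were 1846 ± 359 in LPD and 1496 ± 215 in NPD (SD, n = 5 each), a log2 fold change of 0.30 (standard error 0.14, 95% interval 0.00361 to 0.59). The p was 0.0476 in limma (adjusted p = 0.987) and 0.0397 in a two-sided exact permutation test, whose smallest possible p is 0.00794. The log2 fold change was 0.19 without LPD line 20 and 0.21 without NPD line 36, and in either case limma no longer placed it at an unadjusted p under 0.05. The same was so without LPD line 6 or 40 or NPD line 8, 21 or 51, although the log2 fold change stayed above 0, between 0.19 and 0.36, with each line left out. With depth as a covariate it was 0.43 (limma, unadjusted p = 0.0169). Without NPD line 15 and LPD line 4 together it was 0.41 (limma, unadjusted p = 0.0161). The paper reports Rpe as increased and Prpsap1 as reduced in LPD, the same directions as here, and also assayed both by qRT-PCR. The study presents Pgls, Rpe and Prpsap1 from RNA sequencing of these same lines, so a small p for Rpe or Prpsap1 here is not independent evidence.

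Rpia, the isomerase that forms ribose 5-phosphate (chr6:70765720-70792232), had values of 304, 257, 234, 232 and 281 in LPD lines 1, 4, 6, 20 and 40. NPD lines 8, 15, 21, 36 and 51 had 252.3, 260, 208, 211 and 224. LPD lines 1 and 40 were above every NPD line, and NPD lines 21, 36 and 51 were below every LPD line. The log2 fold change was 0.18 (95% interval -0.10 to 0.46, adjusted p = 0.994 in limma, exact permutation test, p = 0.111). This did not pass the threshold.

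Tkt moves ketol units between sugar phosphates (chr14:30548359-30574720). Its values were 10924, 10153, 8853, 11284 and 13569 in LPD lines 1, 4, 6, 20 and 40 and 9202, 9828, 11849, 9655 and 11789 in NPD lines 8, 15, 21, 36 and 51. LPD lines were both the highest, line 40, and the lowest, line 6. The log2 fold change was 0.06 (standard error 0.12, adjusted p = 0.994 in limma, exact permutation test, p = 0.643), and -0.02 without LPD line 40.

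Taldo1, which transfers dihydroxyacetone units and with Tkt links the pathway to glycolysis (chr7:141392199-141402968), had values from 4561 in NPD line 36 to 6072 in LPD line 40. With a highest value 1.33 times the lowest, it had the narrowest range of the 10 members. Means were 5372 ± 422 in LPD and 5146 ± 508 in NPD (SD, n = 5 each), a log2 fold change of 0.06 (95% interval -0.13 to 0.25, adjusted p = 0.994 in limma, exact permutation test, p = 0.452). It was 0.02 without LPD line 40, without NPD line 36 or with quantile normalisation. Of the 31-base words of Taldo1, 13.8% also occur in Gm17823, which has no row in the table.

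In PRPP synthesis, the catalytic subunits are encoded by the X-linked Prps1 (chrX:140456613-140476140) and Prps2 (chrX:167346322-167382749). Prps1 had values of 1957, 1955, 1362, 1400 and 1398 in LPD lines 1, 4, 6, 20 and 40 and 1263, 3126, 1592, 1712 and 1586 in NPD lines 8, 15, 21, 36 and 51. NPD line 15, the line with raised X-linked values, stood apart. LPD against NPD, the log2 fold change was -0.15 (adjusted p = 0.994 in limma, exact permutation test, p = 0.659) and turned to 0.06 without this line, but was -0.02 without NPD line 15 and LPD line 4 together. Of the 31-base words of Prps1, 18.5% occur in its close relative Prps1l3, which had values of 460 to 837 with 644 in NPD line 15, so the split of reads between them is uncertain.

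Prps2 had values of 687 to 1330 in the LPD lines, with a median of 966, and of 806 to 1413 in the NPD lines, with a median of 962. NPD line 15 and LPD line 1 were highest. Its log2 fold change was -0.04 (adjusted p = 0.997 in limma, exact permutation test, p = 0.849), with a value of 0.09 once NPD line 15 was left out and of 0.10 once LPD line 6 was.

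Prpsap1 encodes an associated protein that binds the synthetase without catalysing the reaction (chr11:116470845-116494202). Its values were 1566, 1508, 1418, 1687 and 1497 in LPD lines 1, 4, 6, 20 and 40, and 1828, 1668, 1578, 1788 and 1907 in NPD lines 8, 15, 21, 36 and 51. LPD lines 1, 4, 6 and 40 were below every NPD line, and LPD line 20 alone reached into the NPD range. NPD lines 8, 36 and 51 were above every LPD line.

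Means of Prpsap1 were 1535 ± 99.9 in LPD and 1754 ± 131 in NPD (SD, n = 5 each), a log2 fold change of -0.19 (standard error 0.08, 95% interval -0.37 to -0.01). The p was 0.0363 in limma (adjusted p = 0.964) and 0.0317 in a two-sided exact permutation test. With the depth of the lines as a covariate the log2 fold change was -0.15 and no longer at an unadjusted p under 0.05 in limma. It also missed this threshold without LPD line 4, 6 or 40 or NPD line 8, 36 or 51, with values from -0.23 to -0.16 over each line left out. Without NPD line 15 and LPD line 4 together it was -0.20 and again missed the threshold. The 31-base words of Prpsap1 occur in no other gene, as is also true of Rpe, H6pd and Rbks.

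Prpsap2, the second associated protein (chr11:61729650-61762088), had values of 924, 868, 747, 660 and 703 in LPD lines 1, 4, 6, 20 and 40. NPD lines 8, 15, 21, 36 and 51 had 598, 853, 817, 740 and 716. LPD lines 1 and 4 were above every NPD line and NPD line 8 was below every LPD line. Its log2 fold change was 0.07 (standard error 0.13, adjusted p = 0.994 in limma, exact permutation test, p = 0.603), with all lines on the other side of 0 from that of Prpsap1. It turned to -0.01 without NPD line 8, the same side as Prpsap1, and was 0.003 without LPD line 1. Of the 31-base words of Prpsap2, 36.3% are shared with Gm13651, which had values of at most 4.16.

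Rbks, which phosphorylates free ribose (chr5:31624439-31697627), had values from 53.6 to 82.3 in the LPD lines, with a median of 72.9, and from 49.5 to 101 in the NPD lines, with a median of 77.2. The NPD lines spanned the LPD lines on both sides. Its log2 fold change was -0.10 (standard error 0.22, adjusted p = 0.996 in limma, exact permutation test, p = 0.635). It turned to 0.005 without NPD line 21, and was -0.003 without LPD line 1 and -0.25 without NPD line 36.

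**Figure D3:**
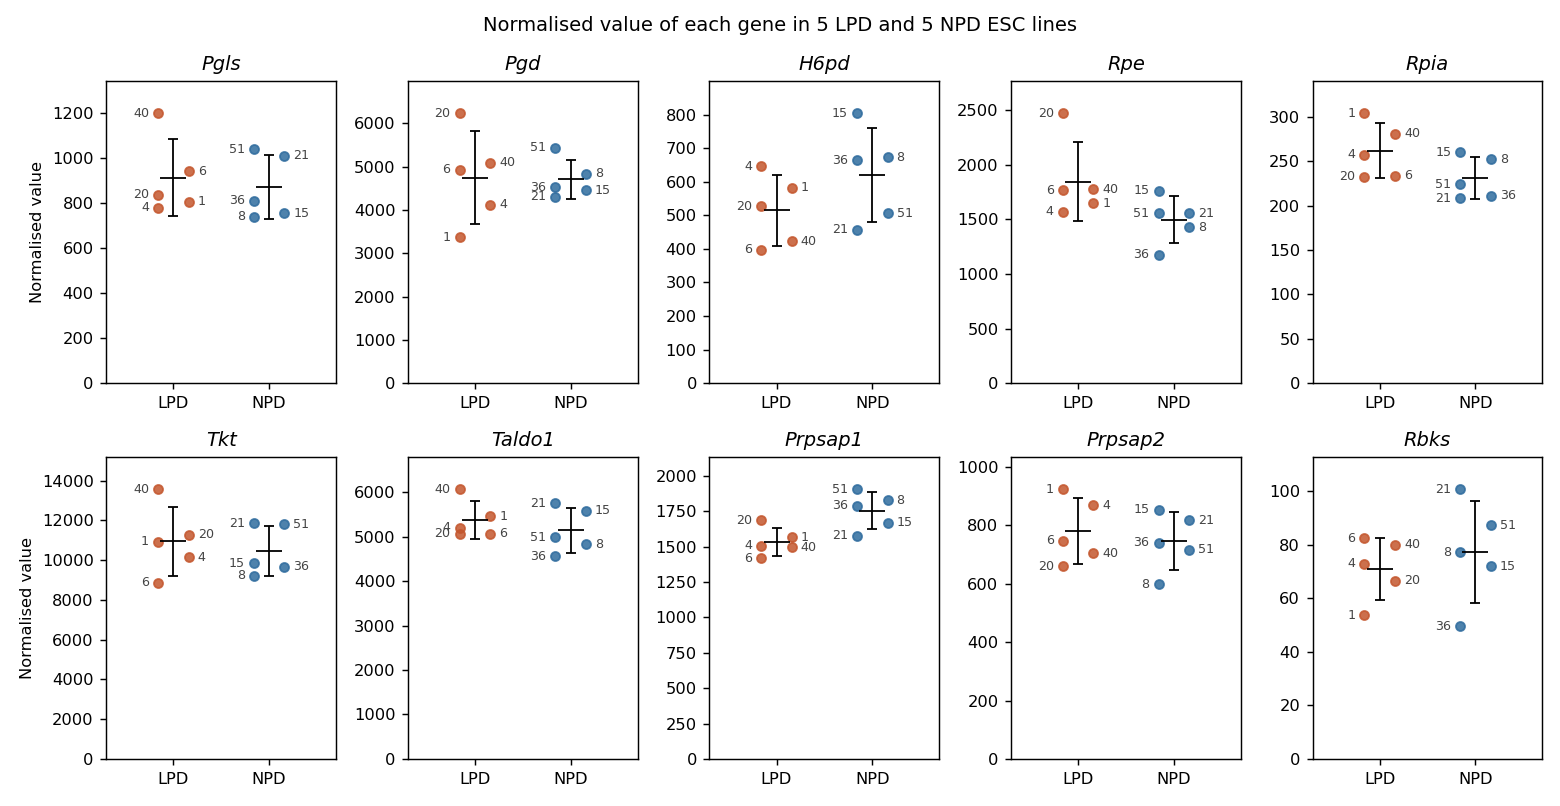
Normalised value (vertical axis, from 0) of each of the 10 genes in 5 LPD and 5 NPD lines. Each point is a line, labelled with its number, and bars are the mean ± SD. In Rpe, LPD line 20 at 2471 lies far above the rest, and in Prpsap1 4 of 5 LPD lines lie below the lowest NPD line at 1578.

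The third question was how the members vary among lines apart from diet. The SD within diets on the log2 scale ran from 0.10 for Prpsap1 and 0.13 for Taldo1 to 0.32 for H6pd and Rbks. Among genes with a mean within a factor of 1.5 of its own, the SD of H6pd exceeded that of 81.6%, Pgd 81.5% and Rpe 78.9%. Prpsap1 exceeded only 9.31% and Rpia 9.79%. The place of Rpe and Pgd depended on single lines, with 53.9% for Rpe without LPD line 20 and 57.5% for Pgd without LPD line 1. With each line left out, a choice made after seeing the data, H6pd stayed between 75.0% and 85.9%, Prpsap1 between 5.2% and 14.3% and Rpia between 6.5% and 14.4%.

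No line was high or low in all members. LPD line 40 was the highest line for Pgls, Tkt and Taldo1 and was above the median of the 10 lines in 7 of 10 members. NPD line 36 was above it in 2 of 10 and was lowest for Rpe, Taldo1 and Rbks. LPD line 6 was lowest for H6pd, Tkt and Prpsap1, and LPD line 20 was highest for Pgd and Rpe. The median deviation of the members from the median of the 10 lines ran from -0.09 in NPD line 36 to 0.13 in LPD line 40, on the log2 scale.

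**Figure D4:**
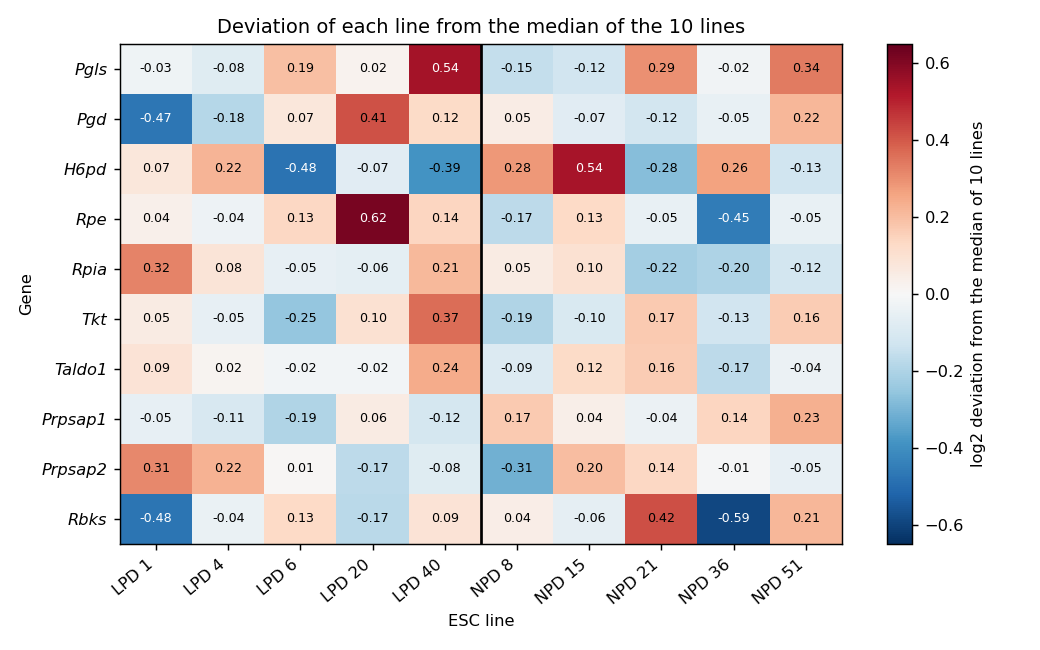
log2 deviation of each line (columns, LPD left of the black bar and NPD right) from the median of the 10 lines for each of the 10 members (rows), in red where higher and blue where lower, with the value printed. The largest among them are 0.62 for Rpe in LPD line 20 and -0.59 for Rbks in NPD line 36.

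Over the 45 pairs of members, correlations of log2(value + 1) across the 10 lines were positive in 24 pairs and negative in 21, with a median Pearson r of 0.14. After Benjamini-Hochberg adjustment over the 45 pairs, 0 were under 0.05 by r (permutation test), and 4 were under 0.05 before adjustment. The smallest adjusted p by r was 0.133.

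In both pairs with the smallest p, 1 gene was low in lines where the other was high. Pgls and H6pd had r = -0.83 (permutation test, p = 0.00296, adjusted p = 0.133) and rho = -0.87 (permutation test, p = 0.00215, adjusted p = 0.0967). Without LPD line 40 and NPD line 51, r was -0.88, and within diets it was -0.80 in LPD and -0.92 in NPD. Lines with more Pgls thus tended to have less H6pd in both diets, and of all pairs only this 1 had an adjusted p under 0.1 by rho and none by r.

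Pgd and Prpsap2 had r = -0.78 (permutation test, p = 0.00735, adjusted p = 0.165) and rho = -0.83 (permutation test, p = 0.00450, adjusted p = 0.101). Without LPD lines 1 and 20, r was -0.66, and within diets it was -0.98 in LPD and -0.53 in NPD. Pgls and Tkt had r = 0.73 (permutation test, p = 0.0157, adjusted p = 0.235) and rho = 0.66 (permutation test, p = 0.0434, adjusted p = 0.497), and r was 0.35 without LPD line 40 and NPD line 51. Within diets it was 0.56 in LPD and 0.97 in NPD.

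**Figure D5:**
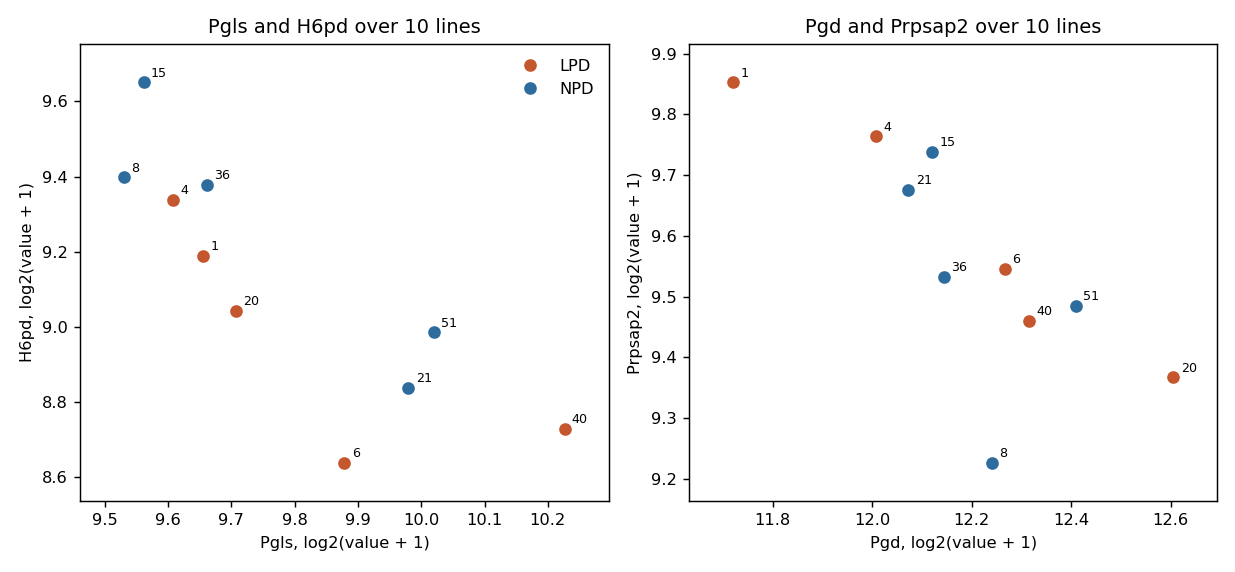
log2(value + 1) of H6pd against Pgls (left) and of Prpsap2 against Pgd (right), where each point is a line labelled with its number, LPD in orange and NPD in blue. Both relations run downward, with r of -0.83 and -0.78 over 10 lines.

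For Pgls, Rpe and Prpsap1, the genes with the most similar course over the 10 lines were taken by Pearson r among 14353 other genes, as a description. Pgls was most like Rpp21, a subunit of ribonuclease P, at r = 0.96 and rho = 0.90, and Mrpl54, a mitochondrial ribosomal protein, at r = 0.95 and rho = 0.95. Without LPD line 40 and NPD line 51, these were r = 0.91 and r = 0.97. In all, 34 genes had r above 0.9 with Pgls.

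Rpe was most like Pim3, a serine/threonine kinase, at r = 0.97 and rho = 0.83, and Eif4ebp1, an inhibitor of cap-dependent translation, at r = 0.95 and rho = 0.87. Pim3 was 4108 in LPD line 20 and between 2122 and 2914 in the other lines. Within diets r of Rpe and Pim3 was 0.97 in LPD and 0.95 in NPD. Without LPD line 20 and NPD line 36, r was 0.81 for Pim3 and 0.74 for Eif4ebp1. Prpsap1 was most like Nhej1, a DNA end-joining factor, at r = 0.91 and rho = 0.93, and the pseudouridine synthase Pus7, at r = 0.89 and rho = 0.93. Without LPD line 6 and NPD line 51, r was 0.85 for Nhej1 and 0.79 for Pus7. Each line enters these relations with 1 library, and each gene was picked as the highest r of 14353.

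Beyond the members, the wider pathway was counted in 4 lists. In other pentose and PRPP genes (11 of 12 in the table), 5 had a log2 fold change above 0 and 6 below, with 0 at an unadjusted p under 0.05 in limma and a median of -0.03. The smallest p in each direction belonged to Dera, which splits deoxyribose phosphate, at 0.12 (adjusted p = 0.994 in limma, exact permutation test, p = 0.302), and the transketolase relative Tktl2, at -0.41 (adjusted p = 0.994 in limma, exact permutation test, p = 0.508). Prps1 had the highest value in this list.

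Among 14 genes that use PRPP or follow it in purine, pyrimidine and NAD synthesis, 6 were above 0 and 8 below, with 0 at an unadjusted p under 0.05 in limma and a median of -0.03. Paics, a bifunctional purine enzyme with the highest values of them, had a log2 fold change of 0.06 (adjusted p = 0.994 in limma, exact permutation test, p = 0.0794). Dhodh, the mitochondrial step of pyrimidine synthesis, was at -0.24 (adjusted p = 0.994 in limma, exact permutation test, p = 0.0873). Its values were 765 ± 118 in LPD and 896 ± 75.6 in NPD (SD, n = 5 each), and LPD line 6 was the lowest at 626.

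Among 15 genes that make or use NADPH, 8 were above 0 and 7 below, with 0 at an unadjusted p under 0.05 in limma and a median of 0.00. Idh1, a cytosolic source of NADPH, was at 0.24 (adjusted p = 0.994 in limma, exact permutation test, p = 0.175) and Nadk2, the mitochondrial NAD kinase, at -0.15 (adjusted p = 0.994 in limma, exact permutation test, p = 0.103). Txnrd1, a thioredoxin reductase with the highest values here, was 26302 in LPD line 20 and 14254 to 19095 in the other lines.

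In a list of glycolytic enzymes from hexokinase to Gapdh and of Tigar, a fructose bisphosphatase, 3 of 11 genes were above 0 and 8 below, with 0 at an unadjusted p under 0.05 in limma and a median of -0.04. Pfkm and Pfkp, subunits of phosphofructokinase, were at 0.15 (adjusted p = 0.994 in limma, exact permutation test, p = 0.413) and -0.22 (adjusted p = 0.994 in limma, exact permutation test, p = 0.143). Gapdh, with the highest values, was at 0.06 (adjusted p = 0.994 in limma, exact permutation test, p = 0.524). Among all genes tested 5.02% were at this threshold, and with 11 to 15 genes in each of the 4 lists a count of 0 cannot be told apart from that share.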

How the data were processed

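RNA from 10 ESC lines, 5 per diet, was sequenced after poly(A) selection. According to the labels and the paper, the authors trimmed reads with cutadapt, quantified GRCm38 transcripts with Salmon and tested transcripts with sleuth 0.30.0. The table the authors deposited holds 1 normalised signal per gene and line, named as scaled with DESeq2 and built from estimated counts. How transcripts were summed is not given in the sources used here. Low values were whole multiples of 1 read, within 0.15, in only 67.6% to 73.8% of cases per line over all genes, so no count model was used. In genes with 1 transcript the share was 90.8% to 99.7%, which gave relative depth. Identifiers of 19918 of 20206 genes matched GENCODE M21.

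Values were transformed as log2(value + 1), which understates changes of low genes, and limma 3.58.1 (R 4.3.3) was run on 14354 genes with means of 10 or more (mean-variance trend, no covariate, Benjamini-Hochberg). Single genes were also tested by exact permutation (two-sided) over all assignments of 5 and 5 lines. Correlations used 100000 resamples. Other steps used scipy 1.17.1, pandas 2.3.3 and numpy 2.4.6 in Python 3.11.15, with matplotlib 3.10.9 for plots.

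The members, lists and named genes were chosen with earlier results of these data known. Named genes were the members, G6pdx, Prps1, Prps2, Ddx3y, the smallest p in each direction and the highest mean of each pathway list, the highest mean of each marker list, and the 2 genes most like Pgls, Rpe and Prpsap1. Postn, Lum, Dcn and genes that share sequence with a member were named after their values were seen. Alternatives were pseudocounts, filters, rescaling, quantile normalisation, no trend, array weights, depth as covariate, an exact Mann-Whitney test and each line left out.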

Additional observations from a re-analysis of the deposited data

Results flagged for a closer look

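In 26 groups of 5 lines (13 genes by 2 diets), 2 held a line far from the other 4, where chance flags about 1 in 20 groups. Rpe in LPD line 20 was 2471, against 1570 to 1775 in the other LPD lines. Prps1 in NPD line 15 was 3126, against 1263 to 1712 in the other NPD lines, in the line whose X-linked genes were higher and whose Ddx3y value was 7.70. The part of either feature in these values was not tested.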

How the results depend on the processing

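No paired analysis was possible because the line numbers are shared by no LPD and NPD line. The count of all genes at an unadjusted p under 0.05, 721, stayed between 549 and 1021 under all 20 alternatives, but the share of these higher in LPD moved from 56.6% to 40.2% with each line rescaled to the same total to 46.2% without a filter and to 47.8% without LPD line 6. Genes under an adjusted p of 0.1 (limma) numbered 0, 1 with array weights and 0 to 40 with each line left out, the 40 without LPD line 40. Of the members, 2 were at an unadjusted p under 0.05, Rpe and Prpsap1, against 0 without a trend, 1 with array weights (Prpsap1), 1 with depth as a covariate (Rpe), 1 without NPD line 15 and LPD line 4 together (Rpe), and 0 to 2 with each line left out. The count was 0 without LPD line 6, LPD line 40, NPD line 8, NPD line 36 or NPD line 51, and 2 without LPD line 1 or NPD line 15. An exact Mann-Whitney test also gave 2. The limma p lay between 0.0161 and 0.130 for Rpe and between 0.0168 and 0.169 for Prpsap1, and neither changed sign. H6pd, Rpia and Taldo1 also kept their sign under the 20 alternatives, with H6pd at -0.144 with array weights and Taldo1 at 0.0299 with each line rescaled to the same total and at 0.0225 with quantile normalisation. With each line left out, H6pd ranged from -0.366 to -0.162 (without NPD line 15), Rpia from 0.121 to 0.220 and Taldo1 from 0.0191 (without LPD line 40) to 0.106. The members' median log2 fold change, 0.06, ranged from -0.0295 (without LPD line 40) to 0.104 with each line left out. Signs turned for Pgls with array weights (-0.0191) and in the range with each line left out (-0.0386 to 0.132). They turned for Pgd with depth as a covariate (0.0273), without NPD line 15 and LPD line 4 together (0.0102) and with each line left out (-0.120 to 0.101). With each line left out, Tkt ranged from -0.0204 to 0.134, Prpsap2 from -0.00993 to 0.124, Rbks from -0.248 to 0.00469, G6pdx from -0.220 to 0.0439, Prps1 from -0.269 to 0.0580 and Prps2 from -0.142 to 0.0960. Without NPD line 15 and LPD line 4 together, G6pdx was at 0.0178, Prps2 at 0.0425 and Prps1, which kept its sign, at -0.0163, and with array weights Prps2 was at 0.0790. Levels per kilobase kept 3 of 10 ranks with the length of the longest protein-coding transcript. Rbks, with a mean of 74.2, was not tested with a minimum mean of 100. The causes of these changes were not tested.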
